A study of Mus musculus with 8 samples.

Results

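RNA-seq read counts were examined for 10 genes of prohormone processing, of 36536 genes counted in each library, in cells sorted from the neonatal mouse cochlea. The genes are *Pcsk1*, *Pcsk2*, *Pcsk5*, *Pcsk6*, *Furin*, *Cpe*, *Pam*, *Scg2*, *Scg5* and *Pcsk1n*, and each was matched by its symbol to 1 Ensembl gene of the NCBIM37 (mm9) annotation. The set was chosen by a measured value, the rise of *Pcsk2* between P1 and P6 in GFP+ cells. Values of that contrast are therefore given as a description without a test, for all 10 genes. The other values of *Pcsk2* in GFP+ cells are treated in the same way.

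All libraries came from *Lfng-GFP* BAC transgenic mice (B6;FVB-Tg(Lfng-EGFP)HM340Gsat/Mmucd), in which the *Lfng* gene on a bacterial artificial chromosome drives GFP in most supporting cell types. The labelled types include Deiters' cells, border cells, outer pillar cells and inner phalangeal cells, and inner pillar cells are not labelled. Cochleas of postnatal day 1 (P1) or 6 (P6) were dissected, dissociated and sorted without culture or drug treatment, and only the brightest GFP+ cells were kept. The 4 groups were P1 GFP+, P1 GFP-, P6 GFP+ and P6 GFP- cells, with 2 replicate libraries in each. Cells with weak GFP were left out of the collection, and the GFP- cells are a mixture of other cell types of the dissected tissue. By the study's methods the lateral wall was separated off at the younger age and only partly removed at the older, so the tissue behind the GFP- cells differed between the ages. No label ties a replicate to separate litters or animals, so the p-values measure the spread between these libraries, which may be technical.

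Peptide hormones, neuropeptides and many growth factors are made as inactive precursors that pass through the secretory pathway. Proprotein convertases cut them after pairs of basic residues, carboxypeptidase E then trims the exposed basic residues, and peptidylglycine alpha-amidating monooxygenase amidates the end of many peptides. PC1/3 (*Pcsk1*) and PC2 (*Pcsk2*) act in dense-core granules of endocrine cells and neurons, whereas furin, PC5/6 (*Pcsk5*) and PACE4 (*Pcsk6*) act in the constitutive pathway and at the cell surface. PC2 needs the chaperone 7B2 (*Scg5*) to become active, and proSAAS (*Pcsk1n*) inhibits PC1/3. Secretogranin II (*Scg2*) is a granule protein that is itself cut into peptides.

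Promoter sequence was read for these genes because 3 of them differ in the elements that lie just before the transcription start. RefSeq promoters of the GRCm38.p6 build, a later build than the mm9 files, were found for 9 of the 10 genes, and *Cpe* had no entry. The 250 bases before the start were searched on both strands for the cyclic AMP response element TGACGTCA, which reads the same on both strands, for the GC box GGGCGG and for the TATA box TATAAA. Of 32851 promoters of this length, 1.55% held the response element, 32.7% held a GC box and 12.4% held the TATA box. *Pcsk1* and *Scg2* were the only members with the response element, which began 78 bases before the start of *Pcsk1* (position -78) and at -68 in *Scg2*. The upstream sequence of *Pcsk2* had neither this element nor the TATA box, and held 7 GC boxes, some of them overlapping. Its GC content of 82.4% was above that of 99.4% of the promoters, whose median was 52.4%. The sequences are given 5′ to 3′ on the strand of the gene, with the response element in capitals for *Pcsk1* and *Scg2* and the GC boxes in capitals for *Pcsk2*.
Pcsk1, GRCm38.p6 chr13:75089607-75089856, plus strand: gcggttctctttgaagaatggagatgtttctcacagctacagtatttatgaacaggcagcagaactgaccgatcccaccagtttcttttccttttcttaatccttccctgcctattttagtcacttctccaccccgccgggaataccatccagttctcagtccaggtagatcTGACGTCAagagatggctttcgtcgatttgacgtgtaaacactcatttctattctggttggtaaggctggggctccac
Scg2, GRCm38.p6 chr1:79440027-79440276, minus strand: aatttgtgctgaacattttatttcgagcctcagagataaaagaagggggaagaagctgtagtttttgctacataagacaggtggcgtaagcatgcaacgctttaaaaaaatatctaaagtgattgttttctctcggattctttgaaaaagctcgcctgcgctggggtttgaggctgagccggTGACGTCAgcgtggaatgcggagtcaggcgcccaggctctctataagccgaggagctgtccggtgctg
Pcsk2, GRCm38.p6 chr2:143545883-143546132, plus strand: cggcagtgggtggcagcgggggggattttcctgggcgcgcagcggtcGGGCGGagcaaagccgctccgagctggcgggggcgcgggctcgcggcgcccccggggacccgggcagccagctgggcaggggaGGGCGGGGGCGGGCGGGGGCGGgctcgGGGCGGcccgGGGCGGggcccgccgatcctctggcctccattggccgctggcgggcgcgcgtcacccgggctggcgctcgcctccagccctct
A match is a description of these letters and not of binding of a factor.

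The libraries held 17769024 to 67695039 counts on genes, fewest in P6 GFP+ replicate 1. Levels are given as CPM, the count scaled to 1000000 counts on genes of its library, and 3 counts corresponded to 0.0443 to 0.169 CPM. The summed level of 5 supporting cell markers (*Lfng*, *Sox2*, *Prox1*, *Fgfr3*, *Hes5*) was 3912 to 6354 CPM in GFP+ and 62.6 to 127 CPM in GFP- libraries, which is the direction the labels give. Of 6 hair cell markers, *Otof* (114 to 191 CPM against 12.5 to 22.0 CPM), *Pou4f3* (9.01 to 15.9 CPM against 0.470 to 1.46 CPM), *Myo7a* and *Ocm* were also higher in GFP+ libraries at each age without overlap, *Myo6* was so at P1 and overlapped at P6, and *Slc17a8* overlapped at both ages. Replicates stood apart in 2 groups. P1 GFP- replicate 2 had 2.43 times the summed neuron markers of replicate 1, with 6 of 7 markers higher (*Tubb3* 101 against 25.9 CPM), and 1.89 times the summed supporting cell markers, with 5 of 5 higher. P6 GFP+ replicate 2 had 2.20 times the summed Schwann cell and glial markers of replicate 1. All 3 were higher, of which *Mog* had 3 counts or fewer in both libraries. The same library had 1.72 times the mesenchyme markers and 4.32 times the endothelial markers. Its supporting cell markers were 0.688 times those of replicate 1, mainly through *Lfng* (2365 against 3755 CPM). Of these 5 markers 1 was higher, *Prox1* (133 against 81.4 CPM).

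A gene was called changed at p and adjusted p below 0.01 in edgeR's quasi-likelihood test over all genes tested, and the study's further criterion of a fold change above 4 is given beside it. All 10 genes passed the low-count filter in each tested comparison, and *Pcsk1n* did not pass it in GFP+ cells across age. Since the libraries are bulk samples, fewer cells of a type and less RNA per cell cannot be told apart in any of the values. At P1, 1 of the 9 tested genes was called higher in GFP+ cells (*Pcsk1*), where 16.6% of all 18682 genes were, and 3 were called higher in GFP- cells (*Pcsk5*, *Cpe* and *Pam*), where 20.7% of all genes were. At an adjusted p below 0.05 the count was 6 of 9 beside 53.6% of all genes, and with the fold criterion it was 2 (*Pcsk1* and *Pam*) beside 17.8%. At P6, *Scg5* was called higher in GFP+ cells, beside 7.72% of 18294 genes, and *Cpe* and *Pam* were called higher in GFP- cells, beside 5.19%. At an adjusted p below 0.05 the count at P6 was 6 of 9 beside 33.5% of all genes, and with the fold criterion it was 1 (*Scg5*) beside 7.98%. In GFP- cells across age, *Furin* and *Scg2* of the 10 tested genes were called higher at P6, beside 5.04% of 18920 genes, and *Pcsk2* was called higher at P1, beside 2.34%. At an adjusted p below 0.05 the count was 4 of 10 beside 19.1% of all genes. The largest of these changes, that of *Scg2*, was 2.94-fold and so below the fold criterion, which 1.85% of all genes met. Without P1 GFP- replicate 2, 3 members were called higher and 4 lower in GFP+ cells at P1, while the calls over all genes went from 3105 to 4642 higher and from 3867 to 5156 lower. The same omission gave 3 members higher at P6 and 1 at P1 in GFP- cells, with 1826 genes in place of 954 and 1203 in place of 443 over all genes. Without P6 GFP+ replicate 2, 2 members were called higher and 5 lower in GFP+ cells at P6, and the calls over all genes went from 1413 to 3428 higher and from 950 to 4339 lower. Leaving out a P6 GFP- library had the opposite effect on all genes. At P6 it left 359 genes higher and 7 lower in GFP+ cells without replicate 1 and 0 in either direction without replicate 2, and across age in GFP- cells it left 218 and 31 without replicate 1 and 334 and 34 without replicate 2. Leaving out a P1 GFP+ library likewise lowered the number of all genes called at P1, in both directions. A call lost in these fits therefore says little about a single gene.

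**Figure D1:**
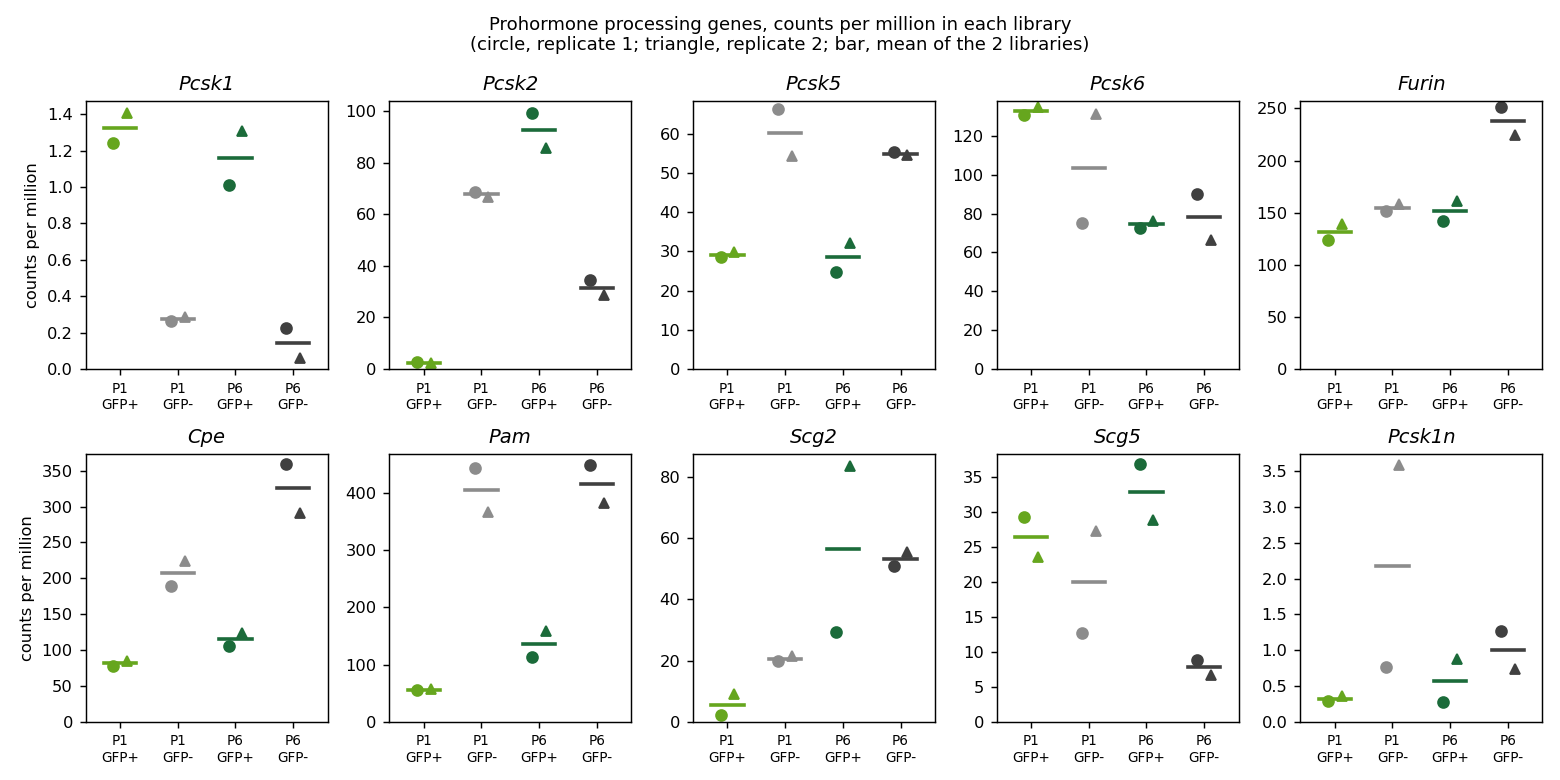
Level of each of the 10 genes in CPM (vertical axes, linear and from 0) in the 4 groups (horizontal axes), with a circle for replicate 1, a triangle for replicate 2 and a bar for the mean. *Pcsk2* is near the floor of its panel in P1 GFP+ cells, at 2.37 and 2.53 CPM, and between 28.7 and 99.3 CPM elsewhere, whereas *Cpe* and *Pam* are higher in all GFP- than in all GFP+ libraries.

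*Pcsk2* (chr2:143371892-143642021, plus strand) encodes PC2, a convertase of the regulated secretory pathway. Its level was 2.53 and 2.37 CPM in P1 GFP+ cells and 99.3 and 86.0 CPM in P6 GFP+ cells. In GFP- cells it was 68.9 and 66.8 CPM at P1 and 34.4 and 28.7 CPM at P6. The 4 groups did not overlap, and their order from highest to lowest was P6 GFP+, P1 GFP-, P6 GFP- and P1 GFP+. The rise in GFP+ cells, which chose the set, had a fitted log2 fold change of 5.32 (SE 0.18), the 45th highest of 17213 genes in that contrast. GFP+ cells were below GFP- cells at P1, at a log2 ratio of -4.67 (SE 0.12), and above them at P6, at 1.55 (SE 0.18). These values are descriptions.

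In GFP- cells, whose change with age did not enter the choice, *Pcsk2* fell by 0.91 on the log2 scale from P1 to P6 (SE 0.14, adjusted p = 0.0058). The call was lost without either P6 library, with a log2 change of -1.07 (adjusted p = 0.016) without replicate 1 and of -0.75 (adjusted p = 0.0375) without replicate 2. The summed neuron markers of the same libraries were 285 and 692 CPM at P1 and 196 and 157 CPM at P6, and their part in this change was not tested. The replicates of a group were within 1.20-fold of each other, also in the groups where the cell type markers of the replicates stood apart. Exons of *Pcsk2* overlap C630020P19Rik, annotated on the opposite strand and counted at 31 to 145 reads a library, and Gm12360, counted at 1 to 21. The kit does not mark strand, so reads of the shared stretches cannot be assigned to either gene.

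The 4 genes given here, of the 5 whose level varied most like that of *Pcsk2* over the 8 libraries, by Pearson's r of log2(CPM + 0.5) among 14267 other genes with a mean of at least 2 CPM, were *Stoml2* (r = 0.990), *Add1* (0.989), *Dram2* (0.988) and *Ret* (0.987). The 8 libraries are 4 groups of 2, and the low P1 GFP+ libraries carry much of these values, since r was 0.873 to 0.888 for the same 4 genes over the other 6 libraries. *Ret*, the receptor of GDNF family ligands, was at 1.94 and 1.57 CPM in P1 GFP+ cells and at 15.6 and 12.4 CPM in P6 GFP+ cells. In GFP- cells *Ret* was at 9.42 and 8.60 CPM at P1 and 7.67 and 7.08 CPM at P6. *Add1* spanned a far narrower range than *Pcsk2*, from 225 CPM in P1 GFP+ cells to 331 CPM in P1 GFP- cells. Among the members themselves r with *Pcsk2* ran from -0.67 for *Pcsk6* to 0.77 for *Scg2*.

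*Pcsk1* (chr13:75227274-75269946, plus strand), which encodes PC1/3, was sparse in all libraries and lay the other way at P1. It had 57 and 35 counts in P1 GFP+ cells (1.24 and 1.41 CPM) and 10 and 18 counts in P1 GFP- cells (0.264 and 0.285 CPM). At P6 it had 18 and 39 counts in GFP+ cells (1.01 and 1.31 CPM) and 14 and 4 counts in GFP- cells (0.227 and 0.0591 CPM). GFP+ libraries were above GFP- libraries at both ages, without overlap. At P1 it was higher in GFP+ cells, with a log2 ratio of 2.35 (SE 0.35, adjusted p = 0.00219), and the call was lost without either GFP+ library (adjusted p = 0.0245 and 0.0242). At P6 the log2 ratio of 3.02 (SE 0.65, adjusted p = 0.0197) was not called, and it was called by DESeq2 (adjusted p = 0.00284), without GFP+ replicate 1 (adjusted p = 0.0019) and without GFP+ replicate 2 (adjusted p = 0.00925). It was not called without GFP- replicate 1 (4.28, adjusted p = 0.0337) or without GFP- replicate 2 (2.32, adjusted p = 0.111). Across age *Pcsk1* had log2 changes of -0.09 (SE 0.33) in GFP+ cells and -0.76 (SE 0.70, adjusted p = 0.48) in GFP- cells. Of the 6 hair cell markers, 4 were higher in the same libraries as *Pcsk1* at both ages, and *Slc17a8* and, at P6, *Myo6* overlapped between the fractions. Their summed level was 672 and 769 CPM in P1 GFP+, 454 and 393 CPM in P1 GFP-, 483 and 517 CPM in P6 GFP+ and 340 and 381 CPM in P6 GFP- cells. Their part in the ratio was not tested.

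Set per length of transcript, as CPM per kilobase of exon (RPKM), the make-up of the 5 convertases differed between the groups. The summed RPKM of *Pcsk1*, *Pcsk2*, *Pcsk5*, *Pcsk6* and *Furin* was 48.4 to 63.1 in all 8 libraries. In P1 GFP+ cells *Pcsk2* made up 0.660% and 0.584% of this sum, and *Pcsk1* made up 0.791% and 0.846%. In P6 GFP+ cells the share of *Pcsk2* was 25.9% and 21.5%, and that of *Pcsk1* was 0.646% and 0.796%. In GFP- cells the share of *Pcsk2* was 17.2% and 13.4% at P1 and 7.32% and 7.23% at P6, while that of *Pcsk1* did not exceed 0.161%. The ratio of *Pcsk2* to *Pcsk1* RPKM was 0.834 and 0.691 in P1 GFP+ cells and ran from 27.0 to 199 in the other 6 libraries. *Pcsk6* and *Furin* together held most of the sum in every library, and *Pcsk6* alone held 64.0% and 62.3% in P1 GFP+ cells.

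**Figure D2:**
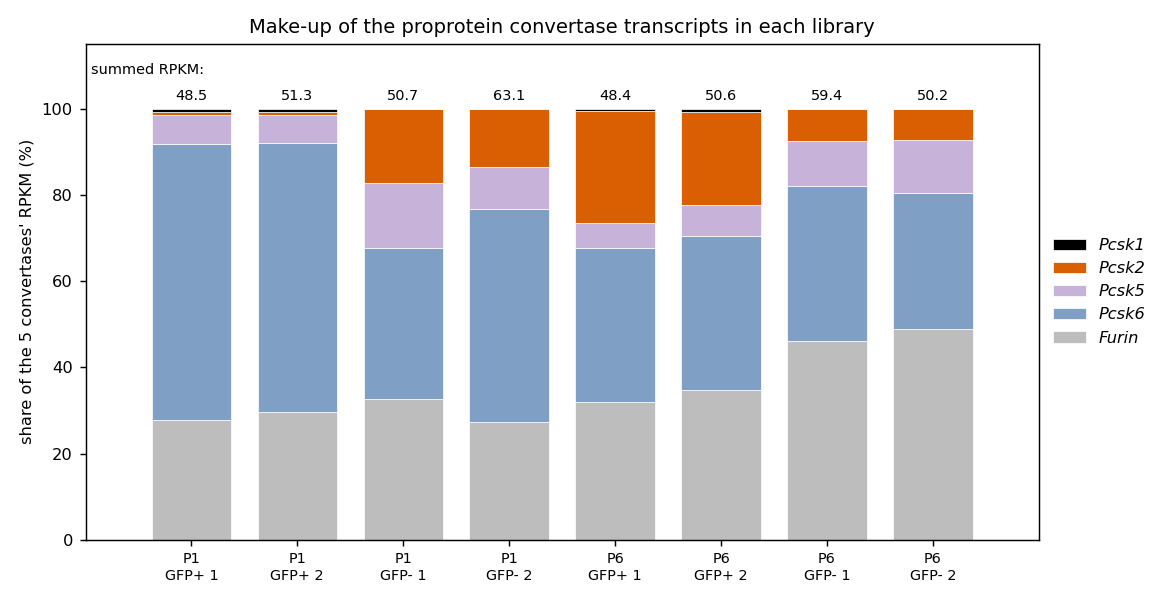
Share of each of 5 proprotein convertases in their summed RPKM (vertical axis, percent) in each of the 8 libraries (horizontal axis), with the sum, 48.4 to 63.1 RPKM, written above each bar. The orange segment, *Pcsk2*, is under 1% in the P1 GFP+ libraries and 21.5% to 25.9% in the P6 GFP+ libraries.

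*Scg5* (chr2:113616519-113669278, minus strand) encodes 7B2, the chaperone of PC2, and its level did not run in parallel with that of *Pcsk2*. In GFP+ cells it was 29.2 and 23.6 CPM at P1 and 36.8 and 28.8 CPM at P6, and these ranges overlapped. In GFP- cells it was 12.6 and 27.3 CPM at P1 and 8.85 and 6.71 CPM at P6. At P6 it was higher in GFP+ cells by 2.07 on the log2 scale (SE 0.25, adjusted p = 0.00381), or 4.20-fold, with no overlap, and the ratio was 2.35 without GFP- replicate 1 (adjusted p = 0.0175) and 1.87 without GFP- replicate 2 (adjusted p = 0.0378), which were not called. At P1 the log2 ratio was 0.51 (SE 0.35, adjusted p = 0.268), and it was 1.17 without P1 GFP- replicate 2 (adjusted p = 6.04e-09) and 0.04 without P1 GFP- replicate 1 (adjusted p = 0.806). In that replicate *Scg5* was 2.17 times its level in replicate 1, beside neuron markers at 2.43 times, and the part of neurons in this was not tested. The same library bears on the change with age in GFP- cells, which was -1.17 (SE 0.36, adjusted p = 0.0629), -0.52 without it (adjusted p = 0.0902) and -1.63 without P1 GFP- replicate 1 (adjusted p = 1.21e-06). Per length, *Scg5* stood at 58.2 and 50.2 times *Pcsk2* in P1 GFP+ cells and at 0.923 to 2.06 times in the other 6 libraries.

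*Pcsk1n* (chrX:7496948-7501536, plus strand), which encodes the PC1/3 inhibitor proSAAS, had the lowest mean level of the 10 genes per length in P1 and P6 GFP+ cells, overlapping with *Pcsk1* at P6. It had 13 and 9 counts in P1 GFP+ cells (0.284 and 0.362 CPM) and 5 and 26 counts in P6 GFP+ cells (0.281 and 0.870 CPM). In GFP- cells it had 29 and 226 counts at P1 (0.765 and 3.58 CPM) and 78 and 50 counts at P6 (1.26 and 0.739 CPM). P1 GFP- replicate 2 stood above all other libraries, at 4.68 times replicate 1, beside the neuron markers at 2.43 times; the part of neurons was not tested. At P1 the log2 ratio of GFP+ to GFP- cells was -2.69 (SE 0.80, adjusted p = 0.0318), not called, and it was called in DESeq2 (adjusted p = 0.004) and without P1 GFP- replicate 1 (-3.42, adjusted p = 3.96e-10). Without P1 GFP- replicate 2 it was -1.18 (adjusted p = 0.0774). The log2 ratio was -0.73 at P6 (adjusted p = 0.391) and the change with age in GFP- cells was -0.95 (adjusted p = 0.36). This change was -1.66 without P1 GFP- replicate 1 (adjusted p = 0.00232) and turned to 0.56 without P1 GFP- replicate 2 (adjusted p = 0.46). Its exons overlap *Eras* on the other strand, which had 2 counts at most in a library.

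The 3 convertases of the constitutive pathway were present at 24.8 to 251 CPM in every library. *Pcsk5* (chr19:17507883-17912122, minus strand) was 28.6 and 29.8 CPM in P1 GFP+ cells and 66.4 and 54.4 CPM in P1 GFP- cells. At P6 it was 24.8 and 32.3 CPM in GFP+ cells and 55.4 and 54.6 CPM in GFP- cells. GFP+ cells were thus at about the same distance below GFP- cells at both ages, with log2 ratios of -0.94 at P1 (SE 0.12, adjusted p = 0.00136, called) and -0.95 at P6 (SE 0.18, adjusted p = 0.0126, not called). The P1 call was lost without GFP+ replicate 1 (adjusted p = 0.016) and without GFP+ replicate 2 (adjusted p = 0.0151). The P6 ratio was called by DESeq2 (adjusted p = 0.00129), without GFP+ replicate 1 (-0.75, adjusted p = 0.000962) and without GFP+ replicate 2 (-1.13, adjusted p = 2.14e-05), and not without GFP- replicate 1 (-0.88, adjusted p = 0.112) or replicate 2 (-0.98, adjusted p = 0.0927). Across age the log2 change was 0.06 in each fraction (adjusted p = 0.792 in GFP- cells), and its sign turned under scaling to library totals and, in GFP- cells, without P1 GFP- replicate 2.

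*Pcsk6* (chr7:73007057-73195220, plus strand), which encodes PACE4, was 131 and 135 CPM in P1 GFP+ cells and 72.6 and 76.2 CPM in P6 GFP+ cells. In GFP- cells it was 75.2 and 131 CPM at P1 and 89.8 and 66.6 CPM at P6. It was the member with the largest decrease with age in GFP+ cells, at -0.74 on the log2 scale (SE 0.11), a description. The P1 ratio of 0.46 (SE 0.24, adjusted p = 0.157) was not called, and the GFP- replicates at P1 differed 1.75-fold. The ratio was 0.09 without P1 GFP- replicate 1 and 0.91 without P1 GFP- replicate 2. The latter library also held 2.43 times the neuron and 1.89 times the supporting cell markers of replicate 1, and their part was not tested. *Pcsk6* was not called at P6 (log2 ratio -0.08, adjusted p = 0.782) or across age in GFP- cells (-0.21, adjusted p = 0.625), and both signs turned without single GFP- libraries.

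*Furin* (chr7:87533471-87550322, minus strand), which cuts many growth factor and receptor precursors, was 124 and 139 CPM in P1 GFP+ cells and 152 and 158 CPM in P1 GFP- cells. At P6 it was 142 and 162 CPM in GFP+ cells and 251 and 225 CPM in GFP- cells. It rose with age in GFP- cells by 0.81 on the log2 scale (SE 0.12, adjusted p = 0.0054). The rise was not called when the libraries were scaled to their totals (0.62, adjusted p = 0.0125), nor without P6 GFP- replicate 1 (0.71, adjusted p = 0.0344) or replicate 2 (0.93, adjusted p = 0.0136). Between the fractions the log2 ratio was -0.13 at P1 (adjusted p = 0.251) and -0.66 at P6 (SE 0.17, adjusted p = 0.035), which was not called, and which, of the 4 omissions of a library, was called without P6 GFP+ replicate 2 only (-0.73, adjusted p = 0.0025).

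*Cpe* (chr8:67071355-67171837, minus strand) and *Pam* (chr1:99691691-99992223, minus strand) encode the carboxypeptidase and the amidating enzyme that act after the convertases. *Cpe* was 78.0 and 84.4 CPM in P1 GFP+ cells, 190 and 224 CPM in P1 GFP- cells, 106 and 124 CPM in P6 GFP+ cells and 360 and 291 CPM in P6 GFP- cells. It was lower in GFP+ cells at P1 by a log2 ratio of -1.25 (SE 0.11, adjusted p = 0.000244) and at P6 by -1.51 (SE 0.20, adjusted p = 0.00522). *Pam* was 55.4 and 56.4 CPM in P1 GFP+ cells, 443 and 366 CPM in P1 GFP- cells, 113 and 159 CPM in P6 GFP+ cells and 449 and 383 CPM in P6 GFP- cells. Its log2 ratio of GFP+ to GFP- cells was -2.75 at P1 (SE 0.13, adjusted p = 2.9e-05), or 6.73-fold lower, and -1.62 at P6 (SE 0.23, adjusted p = 0.00634). No GFP+ library reached a GFP- library for either gene. The summed melanocyte markers lay the same way, at 4.73 to 97.5 CPM in GFP+ and 344 to 707 CPM in GFP- libraries, as did mesenchyme markers, and their part was not tested. The P1 calls of both genes held without any single library, and those at P6 held without either GFP+ library. The P6 ratios were not called without GFP- replicate 1, at -1.29 for *Cpe* (adjusted p = 0.0377) and -1.44 for *Pam* (adjusted p = 0.0374), or without GFP- replicate 2, at -1.67 (adjusted p = 0.0312) and -1.75 (adjusted p = 0.0351).

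*Cpe* and *Pam* differed in how they varied with age. In GFP+ cells the log2 change from P1 to P6 was 1.37 for *Pam* (SE 0.18) and 0.59 for *Cpe* (SE 0.12), both as descriptions. *Pam* was 1.41-fold higher in P6 GFP+ replicate 2 than in replicate 1. That library held 2.20 times the Schwann cell and glial, 2.43 times the melanocyte and 2.98 times the blood and macrophage markers of replicate 1. It also held 4.32 times the endothelial, 1.72 times the mesenchyme and 0.688 times the supporting cell markers, of which *Prox1* lay the other way. The part of these cell types in the rise was not tested. The rise was 1.14 without replicate 2 and 1.58 without replicate 1. In GFP- cells *Cpe* had a log2 change of 0.85 with age (SE 0.16, adjusted p = 0.0124), which was not called, and which was called by DESeq2 (adjusted p = 1.86e-05), without P1 GFP- replicate 1 (0.72, adjusted p = 0.00596) and without P1 GFP- replicate 2 (0.95, adjusted p = 0.000634), and not without P6 GFP- replicate 1 (0.66, adjusted p = 0.0646) or replicate 2 (1.03, adjusted p = 0.0161). *Pam* had a change of 0.23 (SE 0.16, adjusted p = 0.338). Per length *Cpe* was the highest of the 10 genes in each group, at mean RPKM values of 38.9 in P1 GFP+, 99.1 in P1 GFP-, 55.1 in P6 GFP+ and 156 in P6 GFP- cells. The ratio of *Pam* to *Cpe* RPKM was 0.185 and 0.174 in P1 GFP+ cells, and between 0.279 and 0.609 in the other 6 libraries.

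*Scg2* (chr1:79431244-79436665, minus strand), the granule protein secretogranin II, had the second highest rise of the members in GFP+ cells and, in P1 GFP+ cells, the widest gap between replicates of the 10 genes. It was 2.09 and 9.0 CPM in P1 GFP+ cells and 29.4 and 83.5 CPM in P6 GFP+ cells, with a log2 change of 3.48 (SE 0.82) as a description. The change was 2.76 without P1 GFP+ replicate 1, 4.80 without P1 GFP+ replicate 2, 4.14 without P6 GFP+ replicate 1 and 2.66 without P6 GFP+ replicate 2. In GFP- cells it was 19.8 and 21.4 CPM at P1 and 50.8 and 55.6 CPM at P6, and the replicates were within 1.09-fold of each other. The rise with age in GFP- cells was 1.56 on the log2 scale (SE 0.12, adjusted p = 0.000546), or 2.94-fold, and it was called without any single library. The summed Schwann cell and glial markers were higher at P6 in the same libraries, at 413 and 519 CPM against 315 and 310 CPM, and their part was not tested. In the fit of all 8 libraries, whose spread includes the GFP+ replicates, this rise was not called (1.59, adjusted p = 0.122).

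Between the fractions *Scg2* depended on single libraries. At P1 its log2 ratio of GFP+ to GFP- cells was -1.85 (SE 0.58, adjusted p = 0.039), not called, although no GFP+ library reached a GFP- library. It was called at -3.16 without GFP+ replicate 2 (adjusted p = 0.000861), at -1.99 without GFP- replicate 1 (adjusted p = 3.49e-07) and at -1.86 without GFP- replicate 2 (adjusted p = 7.51e-07), and it was -1.11 and not called without GFP+ replicate 1 (adjusted p = 0.0154). At P6 the ratio was 0.08 (SE 0.44, adjusted p = 0.914), with 1 GFP+ library below and 1 above both GFP- libraries. It was 0.68 without GFP+ replicate 1 (adjusted p = 0.00147) and -0.83 without GFP+ replicate 2 (adjusted p = 0.000356). P6 GFP+ replicate 2, with 2.84 times the *Scg2* of replicate 1, had 2.20 times its Schwann cell and glial markers and 2.98 times its blood and macrophage markers. Its melanocyte markers were 2.43 times, its endothelial markers 4.32 times and its mesenchyme markers 1.72 times those of replicate 1. Its supporting cell markers were 0.688 times, of which *Prox1* lay the other way. In P1 GFP+ cells replicate 2, with 4.30 times the *Scg2* of replicate 1, had 0.598 times its Schwann cell and glial markers. The part of these cell types was not tested.

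**Figure D3:**
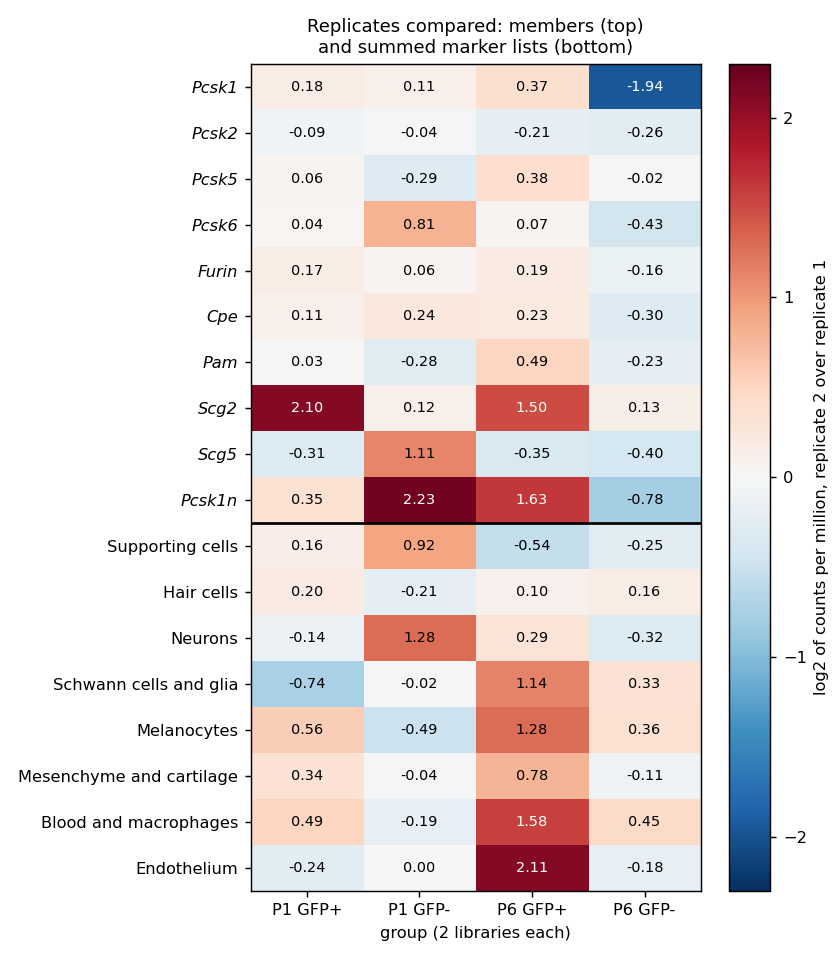
Log2 ratio of replicate 2 to replicate 1 in CPM (colour and printed value) for the 10 genes and for the summed levels of 8 marker lists (rows) in each group (columns). *Scg2* differs between the GFP+ replicates at both ages, by 2.10 and 1.5, *Scg5* and *Pcsk1n* differ in P1 GFP- cells together with neuron markers, by 1.11, 2.23 and 1.28, and *Pcsk2* differs by at most 0.26 in size.

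**Figure D4:**
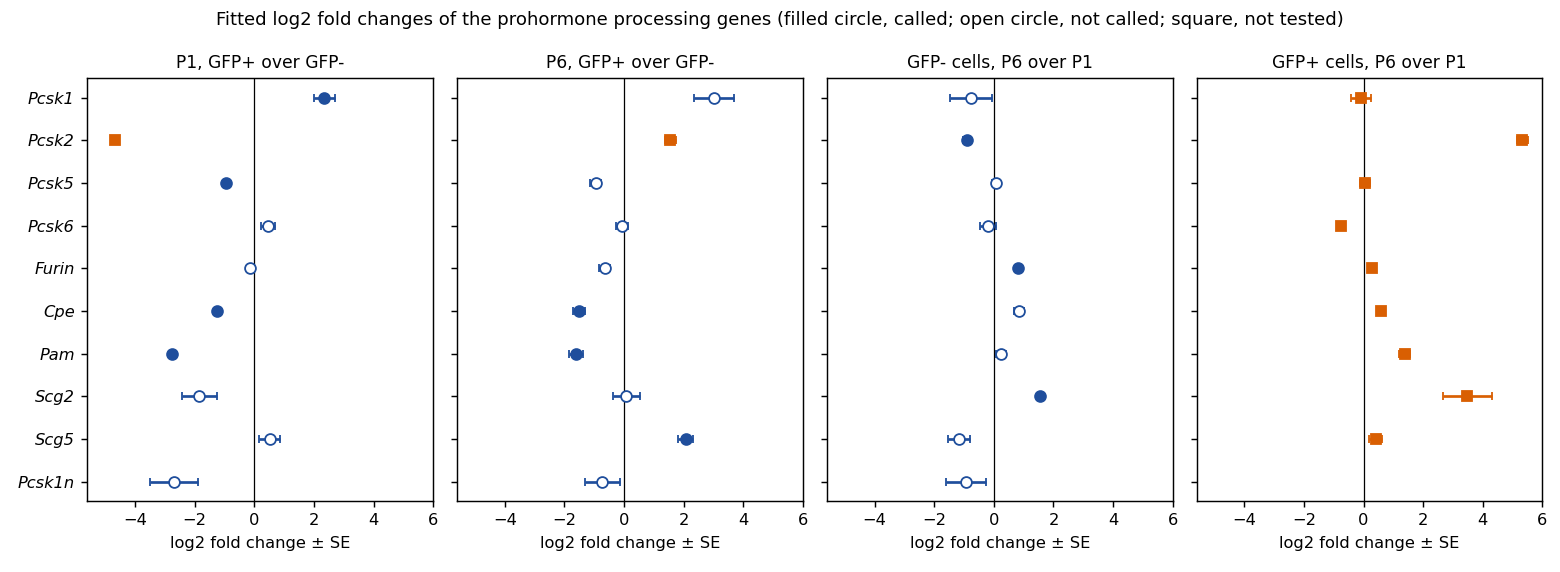
Fitted log2 fold change (horizontal axes, bars for the SE) of each gene in the 4 comparisons, with filled circles for called, open circles for tested and not called, and squares for values given without a test. *Pcsk2* lies at -4.67 at P1 and at 1.55 at P6 between the fractions, and *Cpe* and *Pam* are below 0 at both ages. *Pcsk1n* has no value in GFP+ cells across age.

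Per length, the order of the members differed between the groups. In P1 GFP+ cells the mean RPKM fell from *Cpe* (38.9) through *Pcsk6* (31.5), *Scg5* (16.8), *Furin* (14.3), *Pam* (6.99), *Pcsk5* (3.33), *Scg2* (2.23), *Pcsk1* (0.409) and *Pcsk2* (0.310) to *Pcsk1n* (0.147). The replicates overlapped there between *Scg5* and *Furin* and between *Pcsk5* and *Scg2*, and between no other neighbours. In P6 GFP+ cells *Scg2* (22.7) and *Scg5* (20.9) came after *Cpe* and overlapped, *Pcsk6* (17.7), *Pam* (17.0) and *Furin* (16.5) overlapped each other in turn, and *Pcsk2* (11.7) lay below them and above *Pcsk5* (3.25). In P1 GFP- cells *Pam* (50.6) came next to *Cpe*, and the ranges of *Furin* (16.9), *Scg5* (12.7), *Pcsk2* (8.58) and *Scg2* (8.30) overlapped from neighbour to neighbour. In P6 GFP- cells *Pam* (52.0) again followed *Cpe*, before *Furin* (25.9), *Scg2* (21.4), *Pcsk6* (18.6), *Pcsk5* (6.26), *Scg5* (4.96) and *Pcsk2* (3.99). The pairs *Scg2* with *Pcsk6* and *Scg5* with *Pcsk2* overlapped in that group.

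Other genes of the pathway were counted over lists of enzymes, granule proteins and substrates. The lists were chosen with earlier results of these data known, so the counts are descriptions of the lists. Of 4 other convertases, *Pcsk4* was called higher in GFP+ cells at P1 (12.5 and 15.6 against 9.16 and 8.46 CPM, log2 ratio 0.77, SE 0.16, adjusted p = 0.00968). The *Pcsk4* call was lost under both other scalings. It was the only call in this list in the 3 tested comparisons by edgeR with TMM scaling. Of 12 other carboxypeptidases and peptide-modifying enzymes, 2 were called higher and 6 lower in GFP+ cells at P1, beside 16.6% and 20.7% of all genes, with a median log2 ratio of -0.45 beside 0.01 over all genes. At P6, 5 of 11 were called lower in GFP+ cells beside 5.19% of all genes, with a median of -1.55 beside -0.02. From P1 to P6 in GFP- cells 9 of 11 were called higher beside 5.04% of all genes, with a median of 1.49 beside -0.02.

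The rise of carboxypeptidases in GFP- cells was led by *Cpz*, which was 15.2 and 22.2 CPM at P1 and 355 and 308 CPM at P6 (log2 change 4.34, SE 0.21, adjusted p = 0.000112). *Cpm* followed, at 79.9 and 64.5 CPM at P1 and 285 and 234 CPM at P6 (log2 change 2.04, SE 0.17, adjusted p = 0.00078). *Ctsh*, which encodes cathepsin H, had a log2 change of 1.69 (SE 0.13, adjusted p = 0.000567). The summed mesenchyme and cartilage markers rose in the same libraries, from 16755 and 16283 CPM to 35839 and 33222 CPM, mainly *Col2a1*. *Col1a1* also rose, from 205 and 147 CPM to 304 and 271 CPM. *Pou3f4* overlapped between the ages, at 583 and 511 CPM at P1 and 658 and 553 CPM at P6. *Tbx18* lay the other way, at 852 and 611 CPM at P1 and 541 and 572 CPM at P6. The blood and macrophage markers went from 227 and 199 CPM to 359 and 489 CPM. The part of these cell types in the changes with age was not tested.

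Of 14 other granins and granule proteins, 2 were called higher and 5 lower in GFP+ cells at P1, beside 16.6% and 20.7% of all genes, with a median log2 ratio of -0.93 beside 0.01. The share called higher was thus near that of all genes. The 3 largest of these differences among genes with enough counts were those of *Vgf*, a neuronal granin (0.218 and 0.241 against 1.56 and 4.93 CPM), *Ptprn2* (1.31 and 1.61 against 6.41 and 14.7 CPM) and *Ptprn* (1.51 and 1.57 against 4.80 and 15.2 CPM). Each of them was 2.29 to 3.17 times as high in P1 GFP- replicate 2 as in replicate 1, as were the neuron markers, whose part was not tested. At P6, 2 of 13 were called higher in GFP+ cells and 2 lower, beside 7.72% and 5.19% of all genes. *Cadps2*, which primes dense-core vesicles for release, was 77.2 and 75.9 CPM in GFP+ cells and 15.8 and 11.0 CPM in GFP- cells at P6 (log2 ratio 2.50, SE 0.23, adjusted p = 0.0018). *Pclo*, a presynaptic scaffold protein, was 28.0 and 60.4 against 6.26 and 4.83 CPM (log2 ratio 2.98, SE 0.40, adjusted p = 0.00521). *Sytl4*, a granule-tethering protein, lay the other way at 1.01 and 1.91 against 7.75 and 9.10 CPM (log2 ratio -2.50, SE 0.37, adjusted p = 0.00673). Across age in GFP- cells 1 of 14 was called, *Vgf*, which was lower at P6 (0.0811 and 0.0739 CPM), beside 2.34% of all genes. The median was -1.38 beside -0.02. *Chgb* was 9.71 CPM in P1 GFP- replicate 1 and 37.4 CPM in replicate 2, against 9.92 and 6.44 CPM at P6. *Chga* was 6.78 and 25.8 CPM at P1 and 6.05 and 4.08 CPM at P6, whereas *Sytl4* was 9.42 and 8.72 CPM at P1. The part of P1 GFP- replicate 2 in the median was not tested.

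Precursors of peptide hormones and neuropeptides, many of them cut by PC1/3 and PC2 and others by furin-type convertases or other proteases, were mostly at low levels. Of 50 precursor genes 49 were named in the annotation, and 25 passed the low-count filter at P1, 21 at P6 and 23 in GFP- cells across age. At P1, 7 of 25 were called higher and 4 lower in GFP+ cells, beside 16.6% and 20.7% of all genes. The median log2 ratio was 0.07 beside 0.01 over all genes, and -0.03 beside -0.10 under scaling to library totals. *Trh*, the precursor of thyrotropin-releasing hormone, was 63.7 and 73.6 CPM in P1 GFP+ cells and 0.844 and 0.792 CPM in P1 GFP- cells (log2 ratio 6.50, SE 0.14, adjusted p = 9.99e-06). At P6 *Trh* was 9.96 and 8.20 CPM in GFP+ and 0.632 and 0.680 CPM in GFP- cells (log2 ratio 3.78, SE 0.31, adjusted p = 0.00139). *Trh* was thus high in the P1 GFP+ libraries in which *Pcsk2* was lowest, and both genes were present in the P6 GFP+ libraries.

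*Gcg*, the proglucagon gene, was on the GFP- side, at 6.39 and 3.85 CPM at P1 and 35.1 and 26.7 CPM at P6, and it rose there with age by 2.80 on the log2 scale (SE 0.28, adjusted p = 0.00142). In GFP+ cells *Gcg* was 0.153 and 0 CPM at P1 and 0.338 and 2.21 CPM at P6, and it was called lower than in GFP- cells at both ages (adjusted p = 0.00114 at P1 and 0.00672 at P6). *Nppc*, the precursor of C-type natriuretic peptide, was 0.0873 and 0.121 CPM in P1 GFP+ cells and 2.11 and 3.18 CPM in P1 GFP- cells (adjusted p = 0.000439). At P6, 1 of 21 precursors was called higher in GFP+ cells (*Trh*) and 2 lower (*Gcg* and *Pthlh*), beside 7.72% and 5.19% of all genes. *Pthlh*, which encodes parathyroid hormone-related protein, was 0.844 and 1.24 CPM in P6 GFP+ cells and 7.09 and 7.81 CPM in P6 GFP- cells (log2 ratio -2.82, SE 0.32, adjusted p = 0.00342). In GFP- cells across age 2 of 23 were called higher at P6 (*Gcg* and *Adm*) and 1 lower (*Npy*), beside 5.04% and 2.34% of all genes. *Npy*, the precursor of neuropeptide Y, went from 11.7 and 14.1 CPM at P1 to 2.76 and 2.66 CPM at P6 (log2 change -2.06, SE 0.20, adjusted p = 0.00137).

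Of 23 growth factor, receptor and protease precursors that furin-type convertases cut, 21 were tested in each comparison. At P1, 11 were called higher and 6 lower in GFP+ cells, beside 16.6% and 20.7% of all genes, with a median log2 ratio of 0.58 beside 0.01 over all genes. The study had already reported *Inhba*, *Ntf3*, *Notch1*, *Notch3*, *Tgfb2* and *Sema3a* as enriched in P1 GFP+ cells from these libraries. The counts of this list are therefore not read as a result about it. *Inhba*, the activin A subunit, was 120 and 112 CPM in P1 GFP+ and 1.03 and 1.43 CPM in P1 GFP- cells (log2 ratio 6.63, SE 0.17, adjusted p = 9.99e-06). *Ntf3*, which encodes neurotrophin 3, was 174 and 147 CPM in P1 GFP+ and 0.977 and 3.36 CPM in P1 GFP- cells (log2 ratio 6.23, SE 0.48, adjusted p = 0.000162). At P6, 6 were called higher and 3 lower in GFP+ cells, beside 7.72% and 5.19% of all genes, led by *Gdf6*, a BMP-family ligand, at 942 and 678 CPM in GFP+ and 17.9 and 18.1 CPM in GFP- cells (log2 ratio 5.49, SE 0.28, adjusted p = 0.000673). In GFP- cells across age 6 of 21 were called higher at P6 beside 5.04% of all genes, or 2 under scaling to library totals. *Gdf6* was the largest of these changes, from 0.264 and 0.681 CPM at P1 (log2 change 5.35, SE 0.36, adjusted p = 0.000424).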

How the data were processed

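RNA-seq was performed by the authors on sorted GFP+ and GFP- cochlear cells (TruSeq v2 kit, paired ends). The submitters' processing notes name TopHat 1.4.0, HTSeq and DESeq 1.9.2, and the reads were aligned to mm9. The counting mode is not given in the sources used here. Each deposited file holds the raw count of every Ensembl gene, and reads on no gene, on several genes or not aligned uniquely are listed apart and were left out here (65.1% to 76.2% of the reads listed in GFP- and 64.7% to 72.7% in GFP+ libraries were on genes). Gene symbols, positions and exon lengths came from the NCBIM37 annotation, which named 34391 of 36536 genes.

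Counts were analysed with R 4.3.3 and edgeR 4.0.16 on the 4 libraries of each comparison, using TMM, the quasi-likelihood test and Benjamini-Hochberg adjustment over all genes that passed filterByExpr (count at least 10, total at least 15). Genes were called at p and adjusted p below 0.01. CPM and RPKM use the library's gene total and the merged exon length, and figures were drawn with Python 3.11.15 and matplotlib 3.10.9. Standard errors came from the F statistic, as the fold change over its root. The procedure was tested on simulated data.

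The members, gene lists and markers were chosen with earlier results of these data known. Named list genes are at most 3 per list and comparison, those with the largest change among called genes that averaged 100 or more normalized counts in their higher group. Alternatives were DESeq2 1.42.0 (test and size factors), library totals, no filter, a replicate block, a fit over all 8 libraries, other thresholds and leaving out each library. A crossed replicate block was added after seeing the data. A gene of the naming rule and a marker gene are not reported here, and the marker was left out of its list.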

Additional observations from a re-analysis of the deposited data

Results flagged for a closer look

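Among the 10 members and the list genes that the naming rule gives, in 5 cases every library of one group moved one way and every library of the other the opposite way under the same contrast, and none of these differences was tested. For *Pcsk2*, chosen by its rise in GFP+ cells, the log2 ratio of GFP+ to GFP- cells was -4.67 at P1 and 1.55 at P6, a difference of 6.22, and its change with age was 5.32 in GFP+ and -0.91 in GFP- cells, a difference of 6.24. For *Pthlh* the log2 ratio of GFP+ to GFP- cells went from 0.77 at P1 to -2.82 at P6, a difference of -3.59. For *Npy* the same ratio went from -0.68 to 1.44, a difference of 2.12. For *Inhba* the change with age was -1.30 in GFP+ and 1.43 in GFP- libraries, a difference of -2.73. Of the other list genes, 8 of 48 moved in opposite ways between the fractions at the 2 ages, among them *Qpct* and *Bmp2*. With age, 6 of 44 moved in opposite ways in the 2 fractions, a count made after the values were seen. The share of all genes under the same rule was not counted, so neither count is read as a result about these lists.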

How the results depend on the processing

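Scaling to library totals moved the median log2 change of all genes in GFP- cells across age from -0.02 to -0.21, and that of the other comparisons by at most 0.10, so changes there are best read relative to the median. It gave 1 member called higher at P6 in GFP- cells in place of 2, beside 564 genes in place of 954. Without the filter on low counts, 3 members were called higher in GFP+ and 5 higher in GFP- cells at P1, beside 4220 and 5013 genes. In the same setting 2 members were higher in GFP+ cells at P6, beside 2214 genes, and 2 higher at P1 in GFP- cells across age, beside 1642. DESeq2 called 2 members higher in GFP+ cells at P6 and 2 higher at P1 in GFP- cells. With all 8 libraries in the fit, 2 members were called higher in GFP+ and 4 higher in GFP- cells at P6, beside 2302 and 2855 genes. Across age in GFP- cells that fit called 1 member higher at P6 and 0 at P1, beside 540 and 229 genes. At an adjusted p below 0.05, 5 members were higher in GFP- cells at P1, beside 5251 of 18682 genes. At P6, 2 were higher in GFP+ and 4 in GFP- cells, beside 2843 and 3279 of 18294 genes. With the fold change criterion of 4, 1 member was higher in GFP- cells at P1, beside 2125 genes, and 0 at P6, beside 567. Across age in GFP- cells it was 0 in either direction, beside 271 genes higher at P6 and 79 at P1. At an unadjusted p below 0.05 edgeR gave 6 of 9 members at P1, 6 of 9 at P6 and 5 of 10 in GFP- cells across age. The share of all genes at that threshold was not counted, so these counts are not read as a result about the members. DESeq2 called 5 members in each comparison. Beside them it called 3401 genes higher in GFP+ and 4272 in GFP- cells at P1, and 2206 and 2541 at P6. Across age in GFP- cells it called 1880 genes higher at P6 and 1161 at P1. Leaving out a library moved the number of members called in each comparison, and it moved the number of all genes called as well. The lone library left in a group is then assumed to vary like the others. Counts of members under these omissions are therefore not read as a result about the members. The log2 ratio of *Scg2* at P6 was 0.08 and ran from -0.83 without GFP+ replicate 2 to 0.68 without replicate 1. Some values that were not called turned sign. The *Scg2* ratio at P6 was -0.10 with the replicate block, and the *Pcsk6* ratio at P6, -0.08, ran from -0.30 to 0.21 over the omissions, the latter without GFP- replicate 1. In GFP- cells across age the change of *Pcsk5*, 0.06, was -0.13 with library totals and ran from -0.10 without P1 replicate 2 to 0.20 without P1 replicate 1. That of *Pcsk6*, -0.21, ran from -0.57 without P1 replicate 1 to 0.23 without P1 replicate 2, and was 0.03 without P6 replicate 2. That of *Pcsk1n*, -0.95, ran from -1.66 without P1 replicate 1 to 0.56 without P1 replicate 2. The log2 change of *Pcsk2* in GFP- cells, -0.91, was not called with all 8 libraries (-0.88), under the fold criterion (-0.91) or without a P6 library (-1.07 to -0.75). The log2 change of *Pcsk2* in GFP+ cells was 5.18 to 5.45 over all alternatives.

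The replicate numbers are shared between groups without a stated pairing, and the correlation of replicate differences was -0.29 to 0.08. The replicate block left the number of members called at 1 and 3 at P1, 1 and 2 at P6 and 2 and 1 in GFP- cells across age, and gave 2821 and 3542 genes in place of 3105 and 3867 at P1, 1430 and 1407 in place of 1413 and 950 at P6, and 741 and 299 in place of 954 and 443 across age in GFP- cells. Since the correlation was -0.29 in the last comparison, a crossed replicate block was added, which called 3 members and 1801 genes higher at P6 and 2 members and 1262 genes higher at P1.

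The number of genes called moved more than 1.5 times in some settings, of which the cause was not tested. At P6 (1413 higher in GFP+ and 950 in GFP- cells) it was 2206 and 2541 with DESeq2, 2214 and 3095 without the filter, 2302 and 2855 with all 8 libraries, and 514 higher in GFP- cells with library totals. In GFP- cells across age (954 higher at P6 and 443 at P1) it was 1880 and 1161 with DESeq2, 2351 and 1642 without the filter, 540 and 229 with all 8 libraries, and 564 higher at P6 with library totals. Without P6 GFP- replicate 2, edgeR called 0 genes at P6. The depth limits *Pcsk1* and *Pcsk1n*, with 4 to 57 and 5 to 226 counts a library.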

Other observations

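Many precursors of well-known peptides were barely present, a count made after the values were seen. Of 49 precursor genes named in the annotation, 16 had 3 counts or fewer in each of the 8 libraries, among them *Sst*, *Vip*, *Pdyn*, *Avp*, *Ins2* and *Iapp*, and *Ins1* had 0 counts in all of them. At least 1 CPM in both libraries of a group was reached by 10 precursors in P1 GFP+, 10 in P1 GFP-, 10 in P6 GFP+ and 9 in P6 GFP- cells. Of 23 precursors cut by furin-type convertases, 19, 16, 19 and 19 reached this level in the same groups.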
